A study of Mus musculus with 145 samples.

Results

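SSC1 is a cluster of spermatogonial stem cells (SSCs) in a single-cell time course of mouse SSCs reprogramming in culture. Its members were the cells that carry the name SSC1 in the cell annotation of the study, 818 of the 4339 cells of the original condition (18.9%) and of the 4464 cells annotated in all. The other SSC clusters held 499 (SSC2), 494 (SSC3) and 454 (SSC4) cells. SSC1 cells were found in 42 of 46 libraries and on all 10 days sampled.

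The cells came from SSC cultures of C57BL/6 female by DBA male mice, established from pups at postnatal day 5.5, and carried an Oct4-EGFP reporter (the study's methods name the male strain DBA/2). They were kept in medium with EGF, bFGF, GDNF and ESGRO on feeder cells and received no chemicals, which is the condition shared by all SSC libraries used here. The embryonic stem cells (ESCs) used once below for comparison were of the same cross and, by the study's methods, derived from Oct4-EGFP blastocysts and kept on feeder cells in N2B27 with the inhibitors CHIR99021 and PD0325901 and ESGRO. Colonies were picked by hand and the cells collected by mouth pipette on days 0, 8, 10, 12, 14, 16, 18, 20, 23 and 27, so shares of cells describe the cells collected. Each library was a plate of 96 cell barcodes read by modified STRT-seq, which counts mRNA molecules by their unique molecular identifiers (UMIs). Whether libraries of a day came from separate cultures is not given, and the p-values below measure the spread between libraries, which may be technical.

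SSCs maintain the male germline: they divide to renew themselves under GDNF, which acts through the receptor RET and the ERK pathway, and give rise to spermatogonia that commit to differentiation and meiosis. In culture they proliferate, and their cells are found in all phases of the cell cycle. Zbtb16 (PLZF), a transcription factor needed for SSC maintenance, Dazl, an RNA-binding protein of germ cells, and Ddx4 (VASA), an RNA helicase of germ cells, are used to recognise them.

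All 3 markers were expressed in SSC1. After thinning each cell to 20000 UMIs, which left out 70 SSC1 cells, Dazl was detected in 748 of 748 SSC1 cells, Ddx4 in 747 of 748 (99.9%) and Zbtb16 in 549 of 748 (73.4%, exact 95% interval 70.1 to 76.5%). The Zbtb16 share was 70.9 to 72.1% in SSC2, SSC3 and SSC4. In the ESCs of the series at the same depth Zbtb16 was found in 0 of 43 cells (upper exact bound 8.22%), Ddx4 in 2 of 43 and Dazl in 17 of 43 (39.5%). Without thinning the Zbtb16 share was 87.9% in SSC1, with a median of 149268 UMIs per cell, and 0 of 45 in ESCs, with a median of 321636. The intervals cover counting error only.

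Over the 28 libraries with at least 5 SSC1 cells, which hold 783 of the 818, the level of Dazl in CPM, the summed UMI counts scaled to a common total, lay between 808 and 1638 (median 955) and that of Ddx4 between 378 and 915 (median 480). Zbtb16 lay between 5.41 and 218 CPM (median 122). Its lowest value stood apart from all other libraries, which were at 69.6 CPM or above, and came from day 16 replicate 6, whose 7 SSC1 cells held 1 UMI of Zbtb16 in all. In that library 1 cell carried 220 of the 239 UMIs of Cdkn1a, the p21 inhibitor of the cell cycle. For Ccng1, another p53 target, 1 cell carried 174 of the 196 UMIs, and whether it was the same cell was not checked. The sums of the 7 cells were at 1294 and 1061 CPM for these genes. Single cells also held 163 of 275 UMIs of Dazl and 98 of 169 of Ddx4. The levels of this library, the low Zbtb16 among them, thus rest on few cells. Markers of other cells were present at varying levels. The summed level of 16 fibroblast and feeder genes was 66.7 to 333 CPM in SSC1 (median 128, SSC2 median 121), and that of 8 neural genes 0 to 64.0 CPM. The 8 Sertoli and Leydig genes summed to 0 to 42.1 CPM (median 19.3), with Cyp17a1, Hsd3b1 and Insl3 at 0 in all 28 libraries and Wt1 at up to 34.9, Sox9 at up to 19.96 and Star at up to 17.1 CPM. The 8 blood and vessel genes summed to 6.78 to 457 CPM (median 33.6), with Adgre1 at 0, Cd68 at 1.37 to 65.3 CPM and the globins Hba-a1 and Hbb-bs at up to 255 and 189 CPM.

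Among the genes lower than in SSC2 in every shared library, the 4 with the largest median difference were Mki67, Neil3, Plk1 and Nusap1, which are expressed in dividing cells. Proteins of the G2 phase and of mitosis are made in a wave before division, so their transcripts mark cells that approach or pass through mitosis. The promoters of these 4 are shown because many such genes share short elements near the start of transcription, a CCAAT box and a cell cycle homology region (TTTGAA). The windows run from 250 bases before to 50 bases after the start in RefSeq (GRCm38.p6), read 5′ to 3′ on the strand of the gene, and capitals mark CCAAT (or ATTGG, its other strand) and TTTGAA (or TTCAAA), which did not overlap in these windows. Mki67 is at chr7:135716330-135716629 (minus), Neil3 at chr8:53639016-53639315 (minus), Plk1 at chr7:122159185-122159484 (plus) and Nusap1 at chr2:119618048-119618347 (plus).
Mki67: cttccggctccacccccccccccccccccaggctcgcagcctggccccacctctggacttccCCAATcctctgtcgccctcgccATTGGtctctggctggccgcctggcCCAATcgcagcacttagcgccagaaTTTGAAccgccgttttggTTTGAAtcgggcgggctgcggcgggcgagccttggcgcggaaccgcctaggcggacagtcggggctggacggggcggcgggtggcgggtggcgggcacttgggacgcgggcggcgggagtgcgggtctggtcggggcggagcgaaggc
Plk1: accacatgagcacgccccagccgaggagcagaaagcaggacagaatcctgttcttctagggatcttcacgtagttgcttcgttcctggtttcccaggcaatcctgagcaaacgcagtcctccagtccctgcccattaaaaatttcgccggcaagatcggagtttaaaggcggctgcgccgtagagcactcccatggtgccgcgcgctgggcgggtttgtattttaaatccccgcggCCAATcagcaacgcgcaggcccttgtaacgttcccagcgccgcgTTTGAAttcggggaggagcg
Neil3: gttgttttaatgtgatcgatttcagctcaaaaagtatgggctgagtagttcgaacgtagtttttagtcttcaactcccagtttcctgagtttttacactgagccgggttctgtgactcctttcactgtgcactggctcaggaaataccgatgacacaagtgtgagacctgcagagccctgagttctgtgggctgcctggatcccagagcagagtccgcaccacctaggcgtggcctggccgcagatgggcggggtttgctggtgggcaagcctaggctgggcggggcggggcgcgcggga
Nusap1: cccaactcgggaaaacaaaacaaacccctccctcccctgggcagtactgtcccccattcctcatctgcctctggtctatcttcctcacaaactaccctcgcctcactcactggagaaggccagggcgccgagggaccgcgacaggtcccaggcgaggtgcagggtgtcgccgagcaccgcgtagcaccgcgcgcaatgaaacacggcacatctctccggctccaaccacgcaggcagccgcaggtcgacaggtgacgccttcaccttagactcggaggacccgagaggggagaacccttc

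The Mki67 window holds CCAAT or ATTGG at -188, -166 and -141 from the start and TTTGAA at -116 and -98. Plk1 holds CCAAT at -14 and TTTGAA at 31. Neil3 and Nusap1 hold neither. Of the 63 genes counted as lower in SSC1 than in SSC2, 49 had a window, of which 71.4% held CCAAT and 65.3% TTTGAA on either strand. Of the 9134 compared genes with a window these shares were 39.9% and 11.5%, and of all 27025 windows they were 37.9% and 18.1%. Both elements were present in 55.1%, 5.11% and 7.12%, in the same order. A match describes the letters in the window and no more.

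The clusters had been drawn on these same genes, so SSC1 was set against the other clusters as a description without a test. Within each library that held at least 5 cells of both clusters, the log2 CPM of the summed SSC1 cells was compared with that of the other cluster, and a gene was counted when the difference had the same sign in every such library and a median size of at least 0.5. Against SSC2, in 21 libraries, 69 of 12340 genes were counted (0.559%), 6 higher (0.0486%) and 63 lower (0.511%) in SSC1.

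Mki67, which encodes the proliferation antigen Ki-67 (chr7:135689784-135716361, minus strand, GENCODE vM21), was at 6.73 to 66.1 CPM (median 32) in the 28 SSC1 sums and at 120 to 233 CPM (median 162) in SSC2. The ranges did not overlap, and the median within-library difference was -2.33 on the log2 scale (-4.34 to -1.24 over 21 libraries). Plk1, a kinase that drives entry into mitosis (chr7:122159439-122169873, plus strand), had a median of 32.6 CPM in SSC1, with a range of 14.7 to 104, and 150 CPM in SSC2. Its difference was -2.15 (-3.32 to -1.05). Nusap1, a spindle protein (chr2:119618298-119651244, plus strand), had medians of 42.5 and 195 CPM and a difference of -2.14 (-4.03 to -1.08). Neil3, a DNA glycosylase expressed in dividing cells (chr8:53586867-53639065, minus strand), had medians of 4.97 and 25.8 CPM and a difference of -2.16 (-5.23 to -0.64). All 4 genes were lower in SSC1 in 21 of 21 libraries.

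The median difference was above 0 for 1 of the 51 genes of the G2 and mitosis list. By the counting rule 22 were lower than in SSC2 and 0 higher, against 0.511 and 0.0486% of all genes. The median difference was -0.96, against -0.01 for all genes compared. Aurka, a mitotic kinase, differed by -1.85, Top2a, the topoisomerase that untangles chromosomes, by -1.09, Cdc20, an activator of anaphase, by -1.09 and Ccnb2, a mitotic cyclin, by -0.73. The sum over the list was lower in SSC1 in 21 of 21 libraries, by a median of 0.74 on the log2 scale (-1.01 to -0.37). The 42 genes of S phase differed less, with 6 counted as lower, against 0.511% of all genes. Rrm2, Cdc45 and E2f8 were among the 6, and the 42 genes had a median of -0.37. Their sum was lower in 20 of 21 libraries. The replication-dependent histones, whose transcripts are made in S phase, had a median of -1.13 over 31 genes, and their sum was lower in 20 of 21 libraries. Hist1h2ae was the member counted, with medians of 49.4 CPM in SSC1 and 132 in SSC2.

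Against SSC3 the mitotic genes showed a similar difference and against SSC4 they did not. In 11 libraries shared with SSC3, 25 of the 51 genes were counted as lower (median -0.93), against 1.49% of all genes, and the summed level was lower in 11 of 11. In 9 libraries shared with SSC4, 0 were counted as lower and 1 as higher (median 0.14), against 1.18 and 1.27% of all genes, and the summed level was higher in SSC1 in 8 of 9, by 0.26 on the log2 scale. Mki67 had a median of 13.6 CPM in SSC4, below the 32 of SSC1, and was higher in SSC1 in 7 of 9 libraries (1.30). Plk1 differed from SSC4 by -0.08, with SSC1 higher in 4 of 9. By cell, the G2 and mitosis list took a median of 0.684% of the UMIs in SSC1, 1.21% in SSC2, 1.06% in SSC3 and 0.606% in SSC4. Between the 10th and the 90th percentile of cells it took 0.464 to 1.03% in SSC1 and 0.945 to 1.68% in SSC2.

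**Figure D1:**
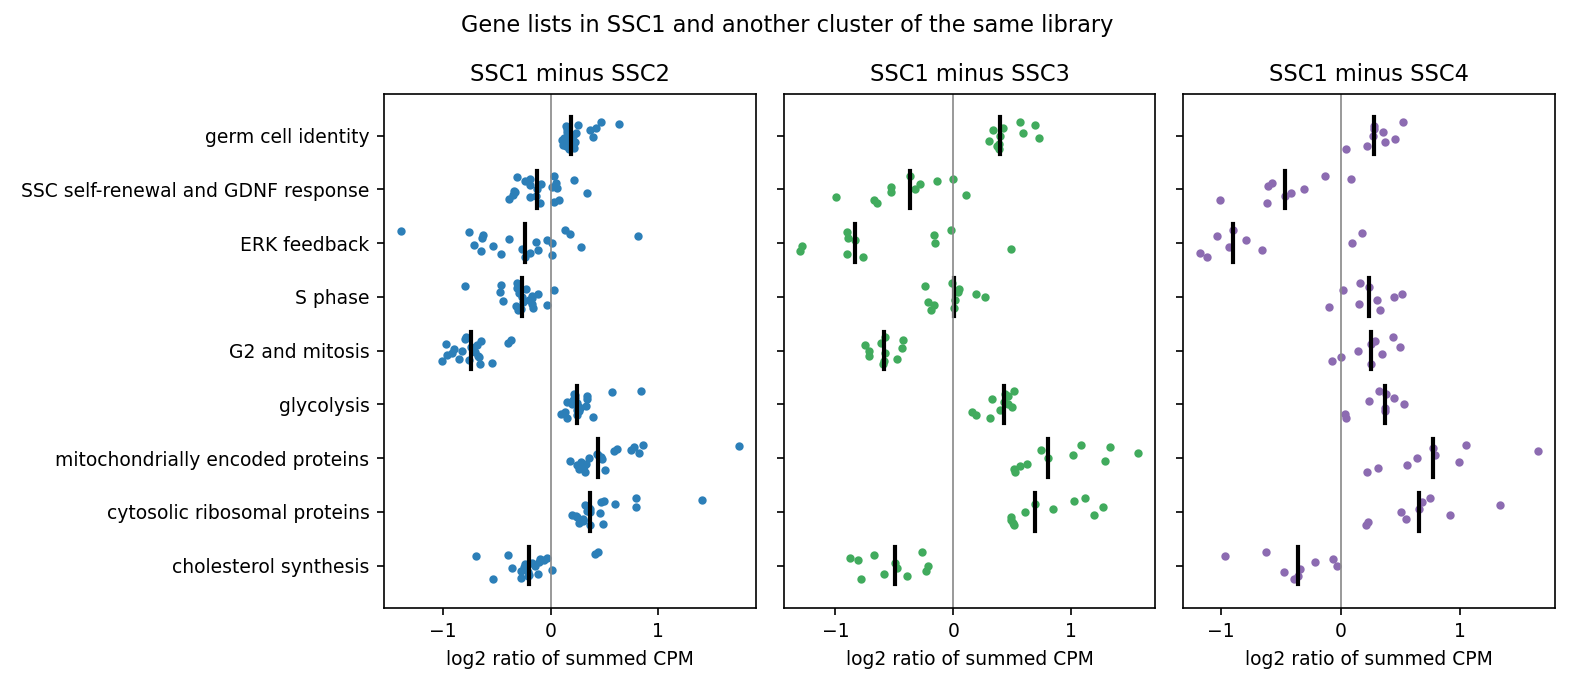
Log2 ratio of the summed CPM of 9 gene lists (rows) in SSC1 to that in SSC2, SSC3 or SSC4 of the same library, each point a library and each bar the median over libraries. The G2 and mitosis list lies below 0 in all 21 and 11 libraries shared with SSC2 and SSC3 and above 0 in 8 of 9 shared with SSC4, while the ribosomal and mitochondrially encoded lists lie above 0 in all.

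The genes higher in SSC1 than in SSC2 were few. Bcan, which encodes the proteoglycan brevican, had medians of 6.26 CPM in SSC1 and 2.08 in SSC2 (difference 1.93). Msantd4 differed by 1.15, with medians of 28.8 and 15.2 CPM, Fam114a2 by 0.58 and PISD, a phosphatidylserine decarboxylase of mitochondria, by 0.57. The 2 others counted as higher were Aldoc, a glycolytic aldolase, and mt-Nd6.

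SSC1 shared fewer libraries with SSC3 (11) and SSC4 (9), and since a gene is counted only when every shared library has the same sign, the counts cannot be compared between clusters. Against SSC3, 429 of 11241 genes were counted (3.82%), 261 higher (2.32%) and 168 lower (1.49%) in SSC1, and against SSC4 261 of 10655 (2.45%), 135 higher (1.27%) and 126 lower (1.18%). The balance depended on the scaling: with the mean of CPM per cell in place of summed counts, 105 were higher and 463 lower against SSC3, and 71 and 336 against SSC4. Nim1k, a kinase gene, was the largest difference in both, at a median of 0.606 CPM in SSC1, 12.2 in SSC3 and 17.5 in SSC4 (log2 -4.08 and -3.82). Gprc5a, an orphan receptor, had medians of 0.731, 12.1 and 14.9 CPM (-3.58 and -3.37). Hist1h3e (-3.91) and Arhgap8 (-3.78) completed the genes lowest against SSC3, and Cldn11, a tight junction claudin (-3.76), and Smad6, an inhibitor of BMP signalling (-3.23), those lowest against SSC4. All of these were near 0 CPM in part of the SSC1 libraries, and their differences depend on the prior count of 2.

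Among the genes higher in SSC1 were Pxt1, a testis gene, with medians of 29.6 CPM in SSC1 and 9.41 in SSC3 (1.47), Bscl2, which encodes the lipid droplet protein seipin (1.46), Pramef12, of a family expressed in germ cells (1.35), and Igfbp6, a binding protein of insulin-like growth factors, with medians of 233 and 98.0 CPM (1.22). Against SSC4 they were Carf (1.73), Zfp932 (1.65), Dfna5, the pore-forming gasdermin E (1.23), and Rspo4, a secreted activator of WNT signalling, with medians of 81.6 and 36.4 CPM (1.21). With cells of 100000 to 250000 UMIs, in the 2 libraries that had enough of them, the difference of Zfp932 was -0.96.

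Some genes of the GDNF response were lower in SSC1 than in SSC3 or SSC4. The ERK feedback list, 12 genes that ERK signalling induces and that restrain it, had a median difference of -0.96 against SSC3, -1.02 against SSC4 and -0.20 against SSC2, with 1 of 12, 2 of 11 and 0 of 11 compared genes counted as lower. Of all genes compared, 1.49, 1.18 and 0.511% were counted as lower. Its sum was lower in SSC1 in 10 of 11, 7 of 9 and 15 of 21 libraries. Etv5, a transcription factor that GDNF induces in SSCs, had medians of 34.05 CPM in SSC1, 49.98 in SSC2, 99.1 in SSC3 and 123 in SSC4, and it was lower in SSC1 in 9 of 9 libraries shared with SSC4 (-0.91). Dusp6, a phosphatase that inactivates ERK, had medians of 70.7, 73.5, 154 and 206 CPM. The medians are over the libraries of each cluster, which fall on different days. On day 20 alone Dusp6 had a median of 81.1 CPM in SSC1 (5 libraries). Ret, the GDNF receptor, was less different, with medians of 88.1, 97.5, 113 and 133 CPM, and was lower in 9 of 9 libraries shared with SSC4 (-0.50). The self-renewal and GDNF list had medians of -0.12 against SSC2, -0.74 against SSC3 and -0.59 against SSC4 over the 19, 19 and 18 of its 20 genes that were compared, of which 0, 2 and 3 were counted as lower (0.511, 1.49 and 1.18% of all genes), and its sum was lower in 13 of 21, 10 of 11 and 8 of 9 libraries.

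Genes of spermatogonial differentiation were higher in SSC1 by their sum. Stra8, which retinoic acid induces at the start of differentiation, had medians of 165 CPM in SSC1, 139 in SSC2, 63.9 in SSC3 and 51.3 in SSC4 and was higher in 11 of 11 libraries shared with SSC3 (0.87). Sohlh1, a transcription factor of differentiating spermatogonia, had medians of 277, 217, 150 and 169 CPM, and Nanos3 had 239, 190, 129 and 175 CPM. These medians mix days: on days 20 and 23 SSC1 had 5 and 1 libraries, and SSC3 and SSC4 each had 7 and 6. On day 20 alone the SSC1 medians were 117 CPM for Stra8, 272 for Sohlh1 and 128 for Nanos3. For Nanos3 this lay below the medians of SSC3 and SSC4 over all days. The sum of the 11 genes of the list was higher in SSC1 than in SSC2 in 20 of 21 libraries, than in SSC3 in 11 of 11 and than in SSC4 in 7 of 9. Of its compared genes 0, 1 and 0 were counted as higher, against 0.0486, 2.32 and 1.27% of all genes. The median over its compared genes was 0.22, 0.33 and 0.23. With the mean of CPM per cell it was 0.06, -0.09 and 0.25, so its sign against SSC3 turned. Sycp1 of the synaptonemal complex differed by 0.15, 0.46 and 0.49, while Hormad1, another meiotic gene, differed by -0.66, -0.90 and -0.39. Over the genes of the meiosis list the medians were -0.07, -0.28 and 0.34, while the sum of the list was higher than in SSC3 in 11 of 11 libraries.

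**Figure D2:**
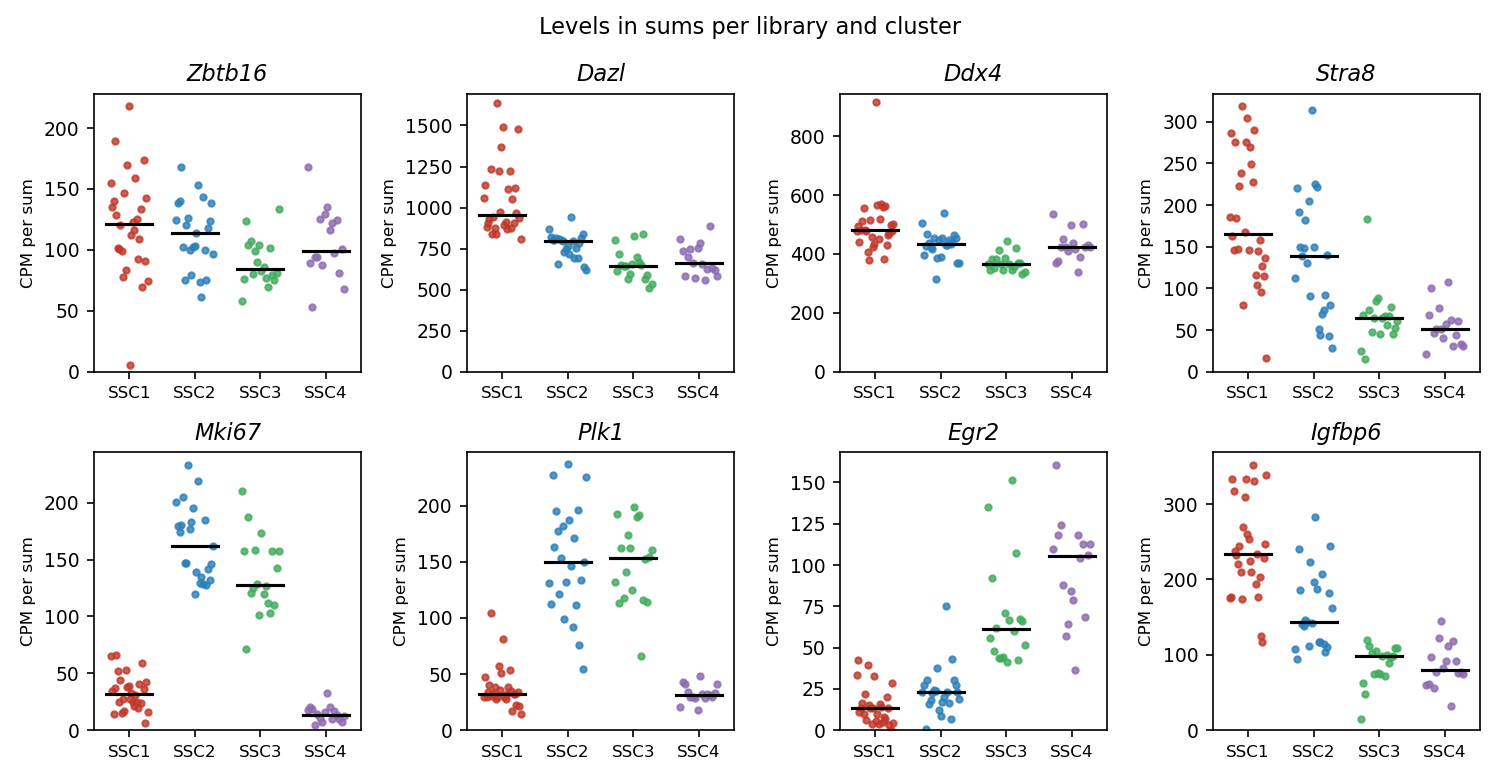
CPM (linear axis from 0) of 8 genes in the summed cells of SSC1, SSC2, SSC3 and SSC4, each point a library with at least 5 cells of the cluster and each bar the median. Mki67 shows SSC1 (6.73 to 66.1 CPM) below SSC2 (120 to 233 CPM) without overlap, and SSC4 (4.23 to 33 CPM) overlapping SSC1.

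The 15 genes of cholesterol synthesis were lower in SSC1 in 18 of 21, 11 of 11 and 9 of 9 libraries by their sum, with median differences of -0.30, -0.63 and -0.51 over the genes. Msmo1, a sterol oxidase, differed by -0.31, -0.66 and -0.60. The 18 genes of glycolysis were higher by their sum in 21 of 21, 11 of 11 and 9 of 9 libraries, and Pkm, a pyruvate kinase, differed by 0.34, 0.82 and 0.58. Cdkn1a was lower in SSC1, with medians of 55.6 CPM against 99.7 in SSC2, 215 in SSC3 and 110 in SSC4, and was lower in 11 of 11 libraries shared with SSC3 (-2.41). The 12 genes of germ cell identity were higher by their sum in all libraries shared with each cluster, with medians of 0.17, 0.40 and 0.09 over the genes. The 12 pluripotency genes summed to 198 to 563 CPM in SSC1 (median 332), and their median differences were -0.01, 0.02 and -0.11, while the sum was higher than in SSC2 in 17 of 21 libraries. Utf1, a chromatin protein of pluripotent cells and spermatogonia, was higher in 19 of 21 (1.07).

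These values have to be read beside depth. SSC1 had the fewest UMIs per cell of the SSC clusters, with a median of 149268 (quartiles 65187 and 252266, lowest 3628, highest 530737), against 286300 in SSC2, 378771 in SSC3 and 281650 in SSC4. It held 70 of the 91 cells of at most 20000 UMIs in the original condition. Within libraries its median was below that of SSC2 in 21 of 21, at a median ratio of 0.588 (0.0704 to 0.885), below that of SSC3 in 11 of 11 (0.252) and below that of SSC4 in 8 of 9 (0.296). The difference also held for what was in the cells. Mitochondrial genes took a median of 1.21% of the UMIs in SSC1 and 0.869% in SSC2, and the share was higher in SSC1 in 20 of 21 libraries shared with SSC2, 11 of 11 with SSC3 and 9 of 9 with SSC4. Thinned to 50000 UMIs, SSC1 cells still had fewer genes, with a median difference of -436 from SSC2 (lower in 19 of 19 libraries), -916 from SSC3 (9 of 9) and -442.5 from SSC4 (7 of 7). Lower counts from less RNA per cell and from less efficient capture cannot be told apart.

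Depth per cell varied among libraries and days. The lowest library medians were 7600 UMIs on day 16, 17138 on day 23 and 19399 on day 14, in day 14 replicate 2, where the other 5 libraries of the day had 175974 to 261880. On day 18 the 4 libraries had 151685 to 203325, and on day 20 the 5 had 38637 to 99493. The medians of SSC2 were 205144 to 474704, and the highest median of SSC1 was 261880.

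**Figure D3:**
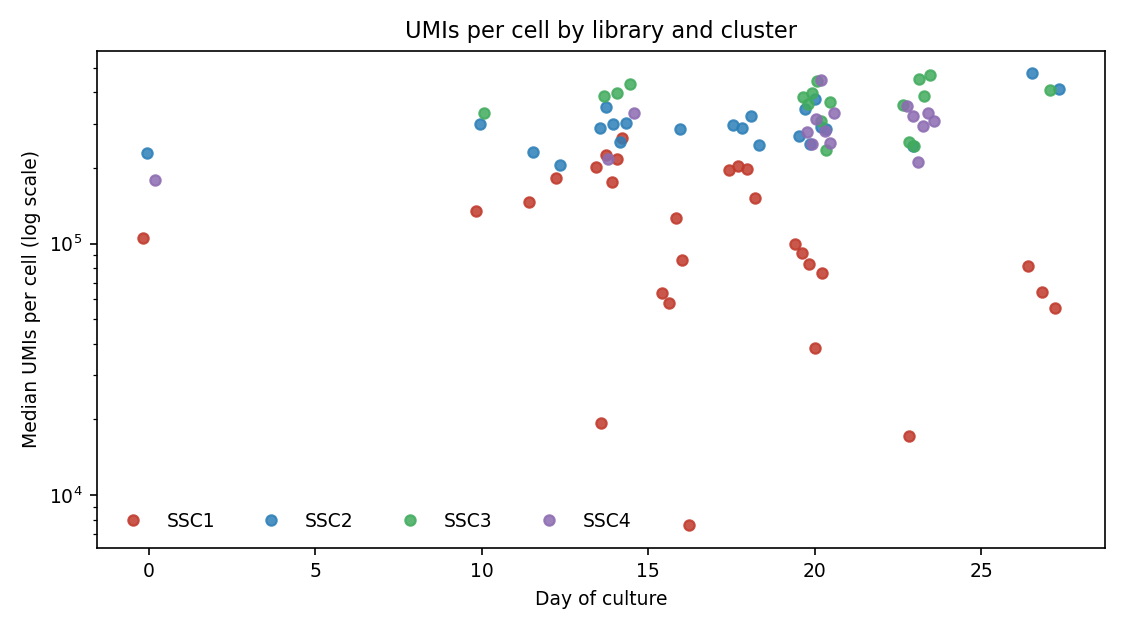
Median UMIs per cell in each library by day for SSC1 and the other SSC clusters, on a log scale, each point a library with at least 5 cells of the cluster, with points of a day spread sideways. SSC1 reaches down to 7600 on day 16, and SSC2 stays between 205144 and 474704.

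Composition differed with depth within SSC1. In the 70 cells of at most 20000 UMIs the pooled level of Actb, a cytoskeletal actin, was 3704 CPM and in the 308 cells above 200000 it was 972 CPM. For mt-Cytb these were 8101 and 2211 CPM and for Rps24, a ribosomal protein gene, 4041 and 1001 CPM, and the most abundant gene of a cell took a median of 1.02 and 0.234% of its UMIs. Above 200000 UMIs Actb was at 954, 999 and 1050 CPM in SSC2, SSC3 and SSC4. Between 100000 and 200000 UMIs Actb was at 1473 CPM in SSC1 and at 1502, 1601 and 1617 CPM in SSC2, SSC3 and SSC4, and Rps24 at 1495, 1404, 1397 and 1468 CPM. Mki67 kept its difference at matched depth, with 27.95 CPM in SSC1 and 157 CPM in SSC2 between 100000 and 200000 UMIs, and 31.7 and 162 CPM above 200000. Stra8 also differed at 100000 to 200000 UMIs, at 191, 137, 45.7 and 35.8 CPM. Dazl was at 1113, 1148, 1123 and 1063 CPM at 100000 to 200000 UMIs, and at 767, 722, 633 and 648 CPM above 200000. The median difference of the spermatogonial differentiation list from SSC2 was 0.22 in all cells and 0.03 in cells of 100000 to 250000 UMIs (above 0 for 6 of 9 genes).

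The SSC1 cells of each of 21 libraries (736 cells) were split at the library's median UMI count and the lower group was compared with the upper group, with the library as a block. edgeR's quasi-likelihood test (adjusted p below 0.05) called 391 of 14774 genes (2.65%), 365 higher (2.47%) and 26 lower (0.176%) in the lower-UMI cells, and the median of all genes was -0.07. The calls gathered among abundant transcripts. All 88 genes with a mean of 1000 CPM or above were higher in the lower-UMI cells (100%), with a median of 0.80 on the log2 scale, as were 200 of 261 genes between 500 and 1000 CPM (76.6%), 44 of 2121 between 100 and 500, 32 of 6530 between 10 and 100, and 1 of 5774 below 10. The 100 most abundant genes took 8.33 to 15.99% of the UMIs in the upper group and 11.1 to 23.9% in the lower group, and the share was higher in the lower group of every library.

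Of all genes tested, 2.47% were called higher and 0.176% lower in the lower-UMI cells. Ribosomal protein genes made up the largest group, with 70 of 81 higher in the lower-UMI cells (median 0.66) and 0 lower. Rpl17, a protein of the large ribosomal subunit, averaged 2109 CPM in the lower and 939 CPM in the upper group (1.21 ± 0.07, SE, edgeR adjusted p = 3.3e-20). Of 11 mitochondrially encoded proteins tested 7 rose (median 0.73), among them mt-Nd4 of complex I (1.07 ± 0.06), and of 77 nuclear subunits of oxidative phosphorylation 30 rose (0.12), among them Cox4i1 (0.88 ± 0.05). Dazl rose by 0.60 ± 0.06 (adjusted p = 6.55e-13), while Ddx4 (0.03 ± 0.06) and Zbtb16 (0.01 ± 0.13) did not pass. Both G2 and mitosis genes that rose, Hmgb2 and Cenpf, are abundant, 0 of the 51 fell, and the list had a median of 0.03.

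Outside these groups the genes with the largest rises were Lzts1, a gene of a leucine zipper protein (1.44 ± 0.23), at 53.4 CPM in the lower and 21.9 CPM in the upper group, Inafm2 (1.34 ± 0.27), Cramp1l (1.12 ± 0.16) and Nefm, a neurofilament gene (1.10 ± 0.26). The largest falls were in Ifitm3, an interferon-induced membrane protein (-1.35 ± 0.39), at 4.59 and 16.4 CPM, Mei4, a meiotic recombination gene (-1.19 ± 0.32), Bcl6, a transcriptional repressor (-1.02 ± 0.29), Ndufaf5, an assembly factor of complex I (-0.80 ± 0.21), and Zfp867 (-0.79 ± 0.21). The adjusted p-values of these falls were 0.0176 to 0.048, and several of the calls were lost under other settings. Over 26 alternatives, most of which leave out a library, Ifitm3 lost its call in 15 (-1.61 to -0.62, adjusted p up to 0.592), Bcl6 in 13 (adjusted p up to 0.26), Mei4 in 5, Zfp867 in 2 and Ndufaf5 in 1. Of the rises named, Nefm lost its call in 2 and Lzts1, Inafm2 and Cramp1l in 0.

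**Figure D4:**
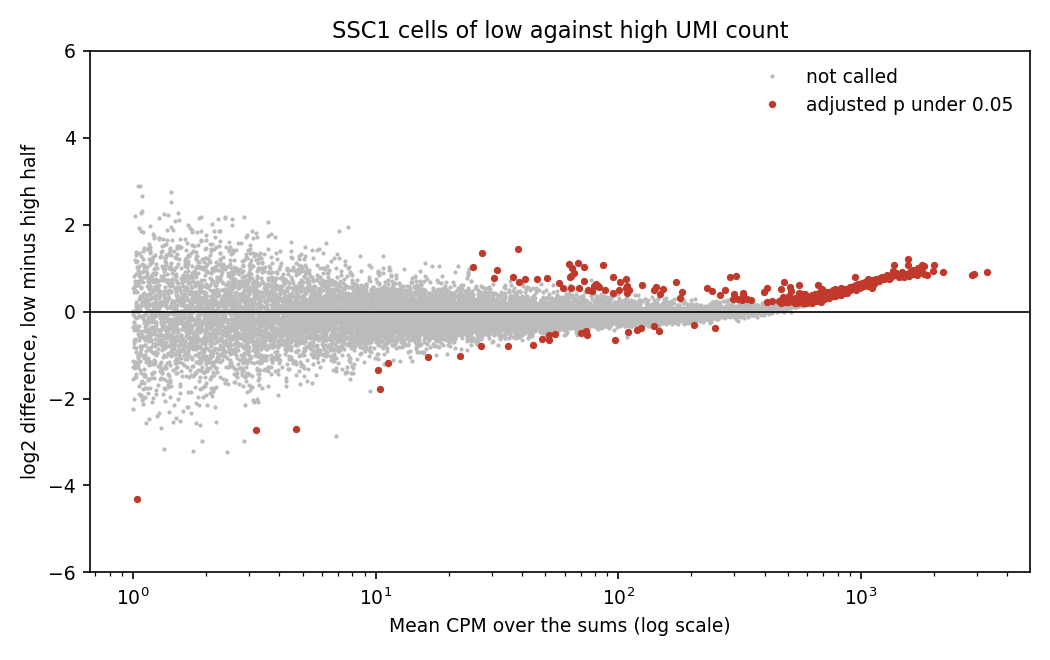
Difference between the lower-UMI and the upper-UMI cells of SSC1 (log2, vertical axis) for each gene tested, against its mean CPM on a log scale, with genes of an adjusted p under 0.05 in red. Called genes gather at the right and above 0, where all 88 genes of 1000 CPM or above were higher in the lower-UMI cells.

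The same lists differed between clusters. Ribosomal protein genes had median differences of 0.36 from SSC2, 0.66 from SSC3 and 0.60 from SSC4, and the mitochondrially encoded proteins 0.38, 0.80 and 0.73. Of the 81 ribosomal protein genes 0, 67 and 52 were counted as higher, against 0.0486, 2.32 and 1.27% of all genes. With cells of 100000 to 250000 UMIs in both clusters the ribosomal medians were 0.11, 0.31 and 0.15 and the mitochondrial ones 0.18, 0.27 and 0.07, in 10, 1 and 2 libraries. The germ cell identity list had medians of 0.04, 0.16 and 0.12 in the same cells. The G2 and mitosis list was at -0.89 against SSC2 in these cells, where it had been -0.96, at -0.57 in the 1 library with SSC3 and at 0.24 with SSC4. By cell its share of UMIs was then 0.688% in SSC1, 1.23% in SSC2, 1.08% in SSC3 and 0.580% in SSC4. The ERK feedback list was at -0.41, -2.26 and -1.47. Averaging the CPM of the cells, in place of summing their counts, moved the median of all genes to -0.13, -0.29 and -0.24, and it turned the medians of the glycolysis list against SSC3 (-0.12) and SSC4 (-0.08), of the differentiation list against SSC3 (-0.09) and of the 3 markers against SSC4 (-0.04) below 0. All of these lay above the median of all genes.

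The share of SSC1 among the SSC clusters was lower on day 20 than on day 18. Among libraries with at least 20 cells of SSC1 to SSC4, it was 40.4% on day 0, 36% on day 10, 86.0 and 93.5% on day 12, 38.5 to 82.4% on day 14 (median 55.5%, 6 libraries) and 69.7% on day 16. On day 18 the 4 libraries held 42.2, 59.1, 62.1 and 70.0% (58.3 ± 11.7%, SD) and on day 20 the 7 libraries held 4.49 to 26.9% (12.6 ± 7.61%, SD). These libraries of the 2 days did not overlap, and the difference of 45.7 percentage points passed an exact two-sided permutation test (p = 0.00606, the smallest that 330 splits allow). Left out for too few SSC1 to SSC4 cells were day 18 replicates 3, 4 and 5, with 0, 6 and 0, and day 20 replicates 1 and 2, with 2 and 3. Of all cells, SSC1 made up 0, 3.16 and 0% in those of day 18. The share among the SSC clusters was 1.05 to 14.1% on day 23 (6 libraries) and 25 and 28.9% on day 27. The libraries of day 20 in the test share a value of the annotation's numbered batch column that no library of day 18 has, so day and that batch cannot be told apart. Of the 4 libraries of day 18 in the test, 2 carry the value of the earlier days and 2 another, and the latter pair alone was 48.0 points above day 20 (exact permutation p = 0.0556, the smallest that 2 against 7 allows).

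Within the earlier days the share had no clear course. Over the 15 libraries of days 0 to 18 it correlated with day at r = 0.21 (permutation p = 0.476) and rho = 0.13 (p = 0.635), and over the 15 of days 20 to 27 at r = 0.31 (p = 0.266) and rho = -0.016 (p = 0.956). Adjusted over the 4 relations these were 0.847 to 0.956. Without the 2 libraries farthest from the median day, r was -0.37 and -0.55.

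**Figure D5:**
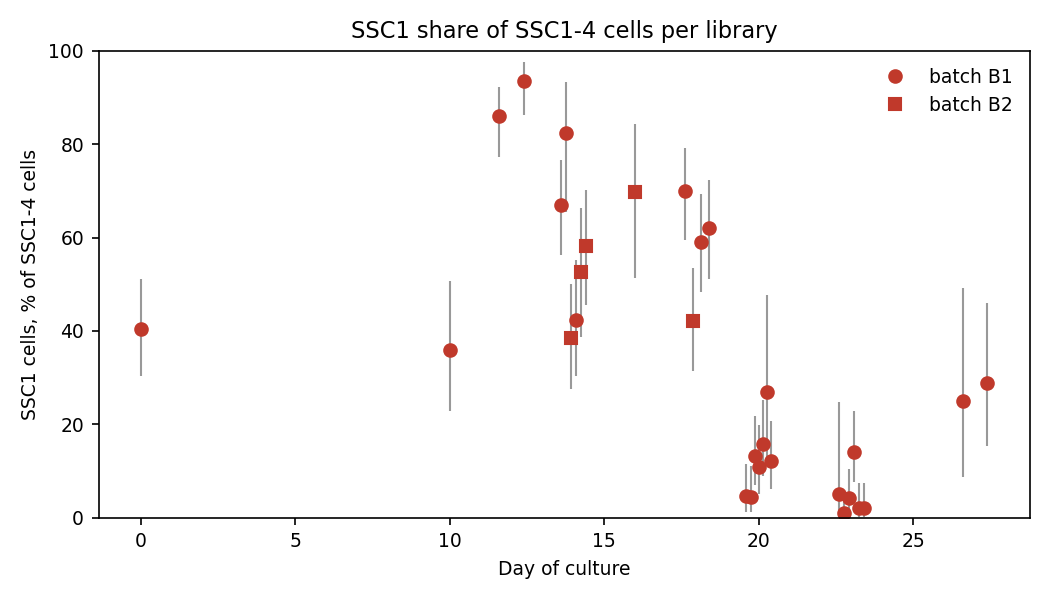
SSC1 as percent of SSC1 to SSC4 cells in each library by day of culture, each point a library with at least 20 such cells, with libraries of a day spread sideways, exact 95% binomial intervals as bars and the annotation's batch names as symbols. The libraries of days 0 to 18 lie between 36 and 93.5% and those of days 20 to 27 between 1.05 and 28.9%.

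Few genes passed a test of a trend with day within SSC1. Over the 28 sums (221631 to 16071329 UMIs, 5 to 86 cells), edgeR's test of a linear trend called 3 of 13463 genes (0.0223%), 3 higher and 0 lower with later days, and 1197 genes had an unadjusted p below 0.05. None of the 3 markers passed. The slopes per 10 days were 0.02 ± 0.10 for Dazl, 0.03 ± 0.09 for Ddx4 and -0.16 ± 0.18 for Zbtb16, on the log2 scale with SE, with adjusted p-values of 0.840 to 0.962. Mki67 (-0.39 ± 0.23, adjusted p = 0.66), Stra8 (-0.60 ± 0.22, 0.39) and Dnmt1, the maintenance DNA methyltransferase (-0.42 ± 0.14, 0.38), also did not pass. Of the 26 lists, the blood and vessel list had 1 member that passed and the other lists 0. Outside the 4 lists of other cells, the medians lay between -0.39 (histones) and 0.23 (hypoxia response).

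Each of the 3 called genes rested on a few cells. Tctex1d1, a dynein light chain family gene (5.30 ± 0.73 per 10 days, adjusted p = 5.2e-05), was at 144 CPM in day 27 replicate 5, at 11.1 CPM in day 20 replicate 5 and at 4.06 CPM in day 27 replicate 4, and at most at 2.31 CPM elsewhere. All 98 UMIs in day 27 replicate 5 came from 1 of 6 cells. Hbb-bs, a beta globin (3.78 ± 0.72, adjusted p = 0.0183), reached 189 CPM in day 23 replicate 5, where 1 of 13 cells held all 124 UMIs, and 98.2 CPM in day 27 replicate 5, where 1 of 6 held all 67. Hba-a1, an alpha globin, was also highest there, at 255 and 86.5 CPM. The third, X4732463B04Rik (6.11 ± 1.16, adjusted p = 0.0183), had 31 UMIs in 1 cell of day 23 replicate 5, while other cells of day 27 replicate 5 held 127 UMIs in 13 of 86. Its name is as deposited, and the leading X is not part of the gene symbol. Tctex1d1 and X4732463B04Rik were named because so few genes passed. The other cells of day 23 replicate 5 held 22 UMIs of Hbb-bs in 8 of 83. The part of blood RNA in the other results was not tested.

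The trend of SSC1 was set against that of SSC2 over the 21 libraries that hold both. Both clusters had been drawn on these same genes, which limits the test. For 19 of 16681 genes (0.114%) the slopes differed, 17 with a higher (0.102%) and 2 with a lower (0.012%) slope in SSC1, and 1093 genes had an unadjusted p below 0.05. Of the 17, 6 are mitochondrially encoded (of 12 tested) and 9 are ribosomal protein genes (of 81). mt-Nd1 had slopes of 0.17 per 10 days in SSC1 and -0.25 in SSC2 (difference 0.43 ± 0.07, adjusted p = 0.00303), mt-Cytb 0.10 and -0.31 (0.40 ± 0.07, adjusted p = 0.00861), and Rpl17 0.50 and -0.08 (0.57 ± 0.11, adjusted p = 0.0115). Incenp, a subunit of the chromosomal passenger complex of mitosis, had slopes of -0.92 and 0.02 (-0.92 ± 0.20, adjusted p = 0.0371), and Tmem106c -0.59 and 0.24 (-0.81 ± 0.18, adjusted p = 0.0413). The slopes of each cluster were fitted separately, so they need not subtract exactly to the difference from the joint fit. These differences depended on the setting. Over 26 alternatives that of mt-Nd1 lay between 0.09 and 0.60 (call lost in 2), that of mt-Cytb between 0.03 and 0.59 (lost in 3) and that of Rpl17 between 0.13 and 0.84 (lost in 4). That of Incenp lay between -1.31 and -0.37 (lost in 15) and that of Tmem106c between -1.06 and -0.44 (lost in 20). Depth per cell of SSC1 differed between days with no single direction, but its gap to SSC2 was wider on the latest days. In the SSC1 cells of a library the median was 105088 UMIs at day 0 and 134193 at day 10, each a single library. Over the libraries of a day, the middle of these medians was 163893 (day 12), 209022 (day 14), 63537 (day 16), 196829 (day 18), 82904 (day 20) and 64218 (day 27), and the library of day 23 had 17138. In SSC2 the values were 228140 (day 0), 299892 (day 10), 218598 (day 12), 299185 (day 14) and 284554 (day 16). On days 18, 20, 23 and 27 SSC2 had 291709, 286968, 243311 and 442753. The clusters thus lay farther apart on days 20, 23 and 27 than on day 18. The part of depth in these slopes was not tested by a covariate. With cells of 100000 to 250000 UMIs 0 genes were called (333 at an unadjusted p below 0.05), over fewer cells. The count also turned on day 0, without which 125 genes were called, and on day 27 replicate 3, without which 1 was. G2 and mitosis genes as a group had a median difference in slope of 0.02, with 0 of 51 called.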

How the data were processed

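Modified STRT-seq libraries of 96 cell barcodes were made from hand-picked colonies, and the same 96 barcodes are used in every library by design. In 5 libraries the deposited barcode table names 2 sets of cells by barcode range, which were kept together as 1 library. The deposited table holds UMI counts per gene and cell, made by the authors after alignment to mm10 (STAR 2.7.2b and featureCounts 2.0.0 in the submitters' processing notes, UMItools in the study's methods), with cells kept by the study at 2000 genes or more and at most 5% mitochondrial UMIs and genes kept in at least 3 cells. The deposited cell annotation gives the counts of UMIs and genes per cell, the percent of mitochondrial UMIs as the authors computed it, and the cluster names from their Seurat clustering. No doublet caller was run here. Each of the 46 libraries of the original condition held 87 to 96 cells and 15975410 to 34609591 UMIs over 24615 genes, and SSC1 was in 42 of them, with 1 to 4 cells in 14 (35 cells).

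UMI counts were summed per library and cluster (at least 5 cells, or 10 SSC1 cells where a library was split by UMI count) and tested with edgeR 4.0.16 (R 4.3.3, limma 3.58.1, TMM scaling, filterByExpr, quasi-likelihood test, Benjamini-Hochberg adjustment over all genes tested, threshold 0.05). DESeq2 1.42.0 was an alternative. Day was a linear term per 10 days, in SSC1 alone and against SSC2, and the split by UMI count had the library as a block. In fits that left out a library the dispersion trend of the full fit was kept. SSC1 was set against other clusters by within-library log2 CPM differences (prior count 2) without a test. Shares were compared by exact two-sided permutation, and their correlations with day by 100000 resamples. These steps ran in Python 3.11, using scipy 1.17.1, pandas 2.3.3 and numpy 2.4.6. Intervals are exact binomial and cover counting error only.

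The cluster and the 26 gene lists were chosen with earlier results of these data known. Genes were named by rule: the markers, the 4 genes with the largest median difference in each direction against each cluster, the 5 called genes with the largest change in each direction (3 by smallest p for the comparison of slopes) at a mean of at least 10 CPM, and up to 4 members of each list; predicted genes without a name were counted but passed over. Aurka, Top2a, Cdc20, Ccnb2, Rrm2, Cdc45, E2f8, Aldoc and mt-Nd6 were named after their values were seen. Simulated counts had 200 genes changed by a fold of 2, which in the 2 tests with day was a fold of 2 per 10 days. The changed genes were drawn from well-counted genes, and the dispersion was the same for every gene. The test by day recovered 92.5% of 199 that could be tested (12568 genes in all, 11 false calls), that of lower against upper UMI counts 99% and the comparison of slopes 42.5%. A smaller change or a gene with few counts was not simulated. Replicate numbers were checked for pairing and only name libraries.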

Additional observations from a re-analysis of the deposited data

Results flagged for a closer look

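Within days of 4 to 10 libraries, 88 groups of values were looked at for a library far from the others, of which chance would mark about 1 in 20. On day 14, replicate 2 stood apart in several measures. Its SSC1 cells had a median of 19399 UMIs (others 175974 to 261880) and 2.25% mitochondrial UMIs (others 0.861 to 1.16%). Its level of Dazl was 1233 CPM (others 839 to 943), of Plk1 104 CPM (27.997 to 40.3), of Rpl17 1847 CPM (801 to 1064), of mt-Nd1 3015 CPM (2095 to 2425) and of mt-Cytb 3617 CPM (2404 to 2828). Tctex1d1 was at 0.105 CPM in replicate 6 of that day and at 0 in the others.

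On day 16, Ddx4 was at 915 CPM in replicate 6 (others 423 to 516), where 98 of its 169 UMIs were in a single cell, and Hbb-bs was at 12.6 CPM in replicate 4 (others 0 to 2.05). On day 18, replicate 7 had a median of 151685 UMIs (others 195234 to 203325), Dazl at 1112 CPM (870 to 910) and mt-Nd1 at 2437 CPM (2243 to 2268), and replicate 2 had Bcan at 23.1 CPM (6.00 to 6.79) and Tctex1d1 at 2.31 CPM (0 to 0.268).

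On day 20, replicate 8, with 7 SSC1 cells, had Neil3 at 16.2 CPM (others 0.694 to 4.75), Hbb-bs at 44.6 CPM (0 to 0.791), mt-Nd1 at 5207 CPM (2384 to 2953), mt-Cytb at 5000.1 CPM (2637 to 3096), Tmem106c at 60.8 CPM (37.2 to 43.7) and X4732463B04Rik at 16.2 CPM (0). Tctex1d1 was at 11.1 CPM in replicate 5 of that day and at 0 in the others. On day 23, SSC1 made up 14.1% of the SSC cells in replicate 5 (others 1.05 to 5%).

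The slope with day differed between SSC1 and SSC2 for Rpl17 by 0.57, for mt-Nd1 by 0.43, for mt-Cytb by 0.40, for Incenp by -0.92 and for Tmem106c by -0.81 (log2 per 10 days, edgeR).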

How the results depend on the processing

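The trend with day in SSC1, 3 genes, became 226 (129 higher, 97 lower) without a filter on low counts, 44 (23 higher, 21 lower) by the DESeq2 Wald test, 1, lower with day and none of the 3, with the numbered batch column as a factor, 0 in batch B1 alone, 1 with at least 10 cells, 0 without day 0, 1 with cells of 100000 to 250000 UMIs, 1 with the median UMIs per cell as a covariate (chosen after seeing the data) and 0 to 3 without any 1 library. With the replicate number as a block 0 genes were called (1102 at an unadjusted p below 0.05); libraries of the same number on different days deviated together at a median r of 0.00083 (-0.072 to 0.23), so the numbers do not pair them. The lower against upper UMI comparison, 391 genes, became 659 (133 lower) by the DESeq2 Wald test and 359 to 410 without any 1 library. The comparison of slopes, 19 genes, became 90 (79 higher, 11 lower) without the filter, 137 (124 higher, 13 lower) by the DESeq2 Wald test, 0 with at least 10 cells of each, 0 with cells of 100000 to 250000 UMIs and 1 to 125 without any 1 library. Genes counted against SSC2, 69, became 176 (55 higher, 121 lower) with cells of 100000 to 250000 UMIs, 110 (16 and 94) with at least 10 cells and 145 (30 and 115) with the mean of CPM per cell. Against SSC3 the 429 became 5583 (2593 and 2990), 812 (361 and 451) and, with the mean of CPM per cell, 105 higher and 463 lower, and against SSC4 the 261 became 3056 (1506 and 1550), 1562 (1036 lower) and 407 (71 and 336). Fewer libraries make a shared sign easier to reach by construction, with 1 library left against SSC3 and 2 against SSC4 at matched UMIs. Without any 1 library the counts were 69 to 85, 427 to 536 and 312 to 365. Zfp932 turned from 1.65 to -0.96 against SSC4 at matched UMIs. The day 18 to day 20 difference in share was 41.8 to 51.1 points without any 1 library (p = 0.00952 to 0.0167, exact permutation) and 48.0 points (p = 0.0556) with the pair of day 18 libraries of the other batch value, chosen after seeing the data. The cause of these moves was not tested otherwise. Sums of 5 cells or of few UMIs limit low genes most.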
